A study of Mus musculus with 16 samples.

Results

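AMPA receptors carry most of the fast excitatory current between neurons of the cortex. This account follows 10 genes of the receptor, 4 coding for the subunits GluA1 to GluA4 (Gria1, Gria2, Gria3 and Gria4) and 6 for auxiliary proteins, out of 41388 genes listed per library. The auxiliary genes code for transmembrane AMPA receptor regulatory proteins (TARPs: Cacng2, Cacng3, Cacng4 and Cacng8) and for cornichons (Cnih2 and Cnih3). Members were found by matching the Ensembl identifiers of the deposited files to these gene symbols, and each of the 10 had a row. Of these, 9 passed the filter on low counts and Cacng8 had 0 counts in all 16 libraries.

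The libraries came from cortical neurons of Swiss Webster mouse embryos of embryonic day 16, grown in culture and given a pair of lentiviruses on day 5 in vitro. RNA was taken on day 10 in vitro and depleted of ribosomal RNA with Ribo-Zero. Every culture expressed Htt exon 1, the piece of the huntingtin gene that holds the repeat expanded in Huntington disease, from 1 virus and a short hairpin RNA (shRNA) from the other. The repeat coded for 25 glutamines in the wild-type form (25Q) and for 72 in the mutant form (72Q). Libraries numbered 4 in each group, namely 25Q with a luciferase shRNA as control, 72Q with that same control, and 72Q with either hairpin against Twist1 (shRNA 1 or shRNA 2). There was no group without virus and none with 25Q and a Twist1 shRNA, and the labels do not name the promoter that drives exon 1. Each group had 1 library in each of the experiments labelled exp107, exp108, exp109a and exp109b. Per-library values below follow that order. The labels exp109a and exp109b share a number and were counted as separate experiments, which the labels do not settle. Agreement in all 4 may therefore rest on fewer experiments. Nor do the labels tell whether the libraries of a group were grown apart. If they were not, p-values reflect only how these libraries vary, which may be technical.

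AMPA receptors are tetramers of GluA1 to GluA4 that open when glutamate binds. GluA2 sets whether the channel lets calcium through, because its transcript is edited at a glutamine codon in the pore loop, so that an arginine is built in. TARPs hold receptors at the synapse by binding the scaffold PSD-95 and also slow the closing of the channel, and cornichons help receptors leave the endoplasmic reticulum and prolong their current. Twist1 is a basic helix-loop-helix transcription factor, a class that binds DNA at the E-box motif CANNTG.

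The coding stretch around the editing codon is shown for the 4 subunits because the counts per gene used here do not separate edited from unedited transcripts. Each run has 45 bases of the sense strand from GENCODE M21 transcripts on GRCm38, with the codon for the glutamine in capitals.
Gria1: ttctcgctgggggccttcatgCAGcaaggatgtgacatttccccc
Gria2: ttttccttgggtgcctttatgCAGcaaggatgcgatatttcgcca
Gria3: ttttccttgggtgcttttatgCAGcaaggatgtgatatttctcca
Gria4: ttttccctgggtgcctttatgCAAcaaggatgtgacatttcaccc
The codon of Gria2 lies in exon 11 of 16, at chr3:80706911-80706913 on the minus strand. Over the 45 bases, Gria3 matched Gria2 at 42 positions, Gria4 at 39 and Gria1 at 36.

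The genes lie apart in the genome (GRCm38, coordinates of the deposited files). Gria1 (ENSMUSG00000020524) spans chr11:57011387-57330244 on the plus strand, Gria2 (ENSMUSG00000033981) chr3:80684936-80802791 on the minus strand, Gria3 (ENSMUSG00000001986) chrX:41400854-41678601 on the plus strand and Gria4 (ENSMUSG00000025892) chr9:4417899-4796234 on the minus strand. Cacng2 (ENSMUSG00000019146) spans chr15:77991748-78120028, Cacng3 (ENSMUSG00000066189) chr7:122670492-122769393, Cacng4 (ENSMUSG00000020723) chr11:107732357-107794557 and Cacng8 (ENSMUSG00000053395) chr7:3390683-3415648. Cnih2 (ENSMUSG00000024873) is at chr19:5092871-5098418 and Cnih3 (ENSMUSG00000026514) at chr1:181352628-181460641. Exons of Cacng2 share 323 bases with the gene A730060N03Rik on the opposite strand, which averaged 4.37 CPM, and exons of Cnih2 share 9 bases with Yif1a. Other members overlapped at most a small RNA gene with no more than 0.276 CPM.

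Total counts ran from 15814525 to 19533034 per library. Twist1, the targeted gene, was at 0 to 0.55 CPM in the 25Q libraries and at 3.29 to 5.08 CPM in the 72Q control libraries. It was at 0.904 to 1.87 CPM with shRNA 1 and at 1.29 to 2.19 CPM with shRNA 2, below every 72Q control library in both cases. Markers of the labelled cell type were present, with 9 of 9 pan-neuronal and 8 of 8 excitatory cortical neuron markers above the filter. The cultures also held transcripts of astrocyte (8 of 8 markers), oligodendrocyte lineage (9 of 9) and inhibitory neuron (12 of 12) genes, and microglial markers summed to 7.01 to 13.2 CPM. No marker of these lists was at 0 in every library.

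Per length of transcript, Cnih2 was the most abundant and Gria3 the least abundant of the 9 members with counts in all 4 groups, on the scale of deposited RPKM (reads per kilobase of transcript, scaled to library size). In 25Q neurons Cnih2 stood at 207 to 255 RPKM. Below it came Gria2 at 72.9 to 82.1, Cacng4 at 67.2 to 76.1 and Gria1 at 61.5 to 67.6, ranges that each overlap the next. Cnih3 followed at 33.2 to 33.9 and Cacng3 at 17.7 to 18.8 RPKM. Cacng2 at 10.9 to 17.2 and Gria4 at 13.0 to 15.0 were not separated, and Gria3 had 7.02 to 8.68 RPKM. In the 72Q control libraries the order below Cnih2 was Cacng4 (53.6 to 69.7 RPKM), Gria2 (38.5 to 47.6) and Gria1 (22.4 to 31.7), with no overlap between these 3. Gria4, Cacng2, Cacng3 and Cnih3 then lay together between 11.2 and 18.9 RPKM.

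The first comparison asks which transcripts differ between mutant and wild-type exon 1 under the control shRNA. In 72Q neurons transcripts of 3 of the 4 subunits and of both cornichons were lower, with Gria1 at 0.364 times its 25Q level, Cnih3 at 0.384 times and Gria2 at 0.50 times. Gria4 was the exception among subunits, slightly higher. Of the 9 members tested, 7 fell, Gria4 rose and Cacng2 did not pass the test. Over all 15103 genes tested, 57.1% were called at an adjusted p under 0.05 (edgeR quasi-likelihood test, Benjamini-Hochberg adjustment), 27.8% lower and 29.3% higher. Higher genes made up 51.4% of these calls, or 60.7% with upper-quartile factors and 69.7% with library totals alone. The median log2 fold change was -0.48 over the 9 members and 0.03 over all genes. In bulk RNA, fewer cells of a type and less RNA per cell cannot be told apart. Summed excitatory neuron markers, of which 7 of 8 fell and 1 rose, went from 1335 to 1453 CPM in the 25Q libraries to 620 to 849 CPM in 72Q. Pan-neuronal markers, of which 7 of 9 fell, went from 9433 to 10750 CPM down to 6722 to 7739 CPM. Their part in the receptor results was not tested.

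Gria1 codes for GluA1, the subunit added to synapses in long-term potentiation. Its level, in CPM (counts scaled to library size with TMM factors), was 443, 392, 445 and 442 in the 25Q libraries and 177, 131, 194 and 132 in the 72Q control libraries. The groups were far apart, and within 72Q the libraries of exp107 and exp109a lay above those of exp108 and exp109b. The log2 fold change was -1.46 ± 0.073 (SE), with an adjusted p of 8.15e-12 in edgeR.

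Gria2, the subunit that blocks calcium entry, was at 594, 534, 618 and 619 CPM in 25Q neurons. With 72Q it stood at 326, 259, 335 and 266 CPM, and the same 2 experiments were the higher ones. The fitted difference was -1.0 ± 0.050 on the log2 scale (adjusted p = 4.89e-16, edgeR).

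Gria3, whose product mostly pairs with GluA2, was at 77.2, 76.8, 87.8 and 92.7 CPM in 25Q and at 44.5, 39.98, 51.7 and 43.5 CPM in 72Q. No library of either group reached the other. Its log2 fold change was -0.90 ± 0.056 (adjusted p = 4.92e-14, edgeR).

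Gria4 codes for GluA4, the fast subunit known from early development and from parvalbumin interneurons. It was at 88.8, 97.4, 92.7 and 89.0 CPM with 25Q and at 96.5, 106, 107 and 97.1 CPM with 72Q. The groups overlapped, although 72Q was higher within each of the 4 experiments. The fitted rise was 0.14 ± 0.050 log2 units (adjusted p = 0.0171, edgeR). This small call was lost without the experiment block (0.14, adjusted p = 0.144), with a block by title number (0.14, adjusted p = 0.102), and without any of 3 single libraries. These were the 72Q control libraries of exp109a (0.12, adjusted p = 0.0754) and exp107 (0.12, adjusted p = 0.0761) and the 25Q library of exp109b (0.12, adjusted p = 0.0591). With library totals alone it was 0.28, and adjusted p values over its 16 alternatives ran from 7.62e-06 to 0.144. Inhibitory neuron markers, among which GluA4 is known to be expressed, summed to 476 to 649 CPM in 25Q and 298 to 491 CPM in 72Q, with 9 of 12 lower and 1 higher. Markers of neural progenitors and dividing cells summed to 164 to 239 CPM in 25Q and 199 to 271 CPM in 72Q, with 5 of 7 higher and none lower. Of all genes, 27.8% were called lower and 29.3% higher in this comparison. The part of either marker list in the result was not tested.

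**Figure D1:**
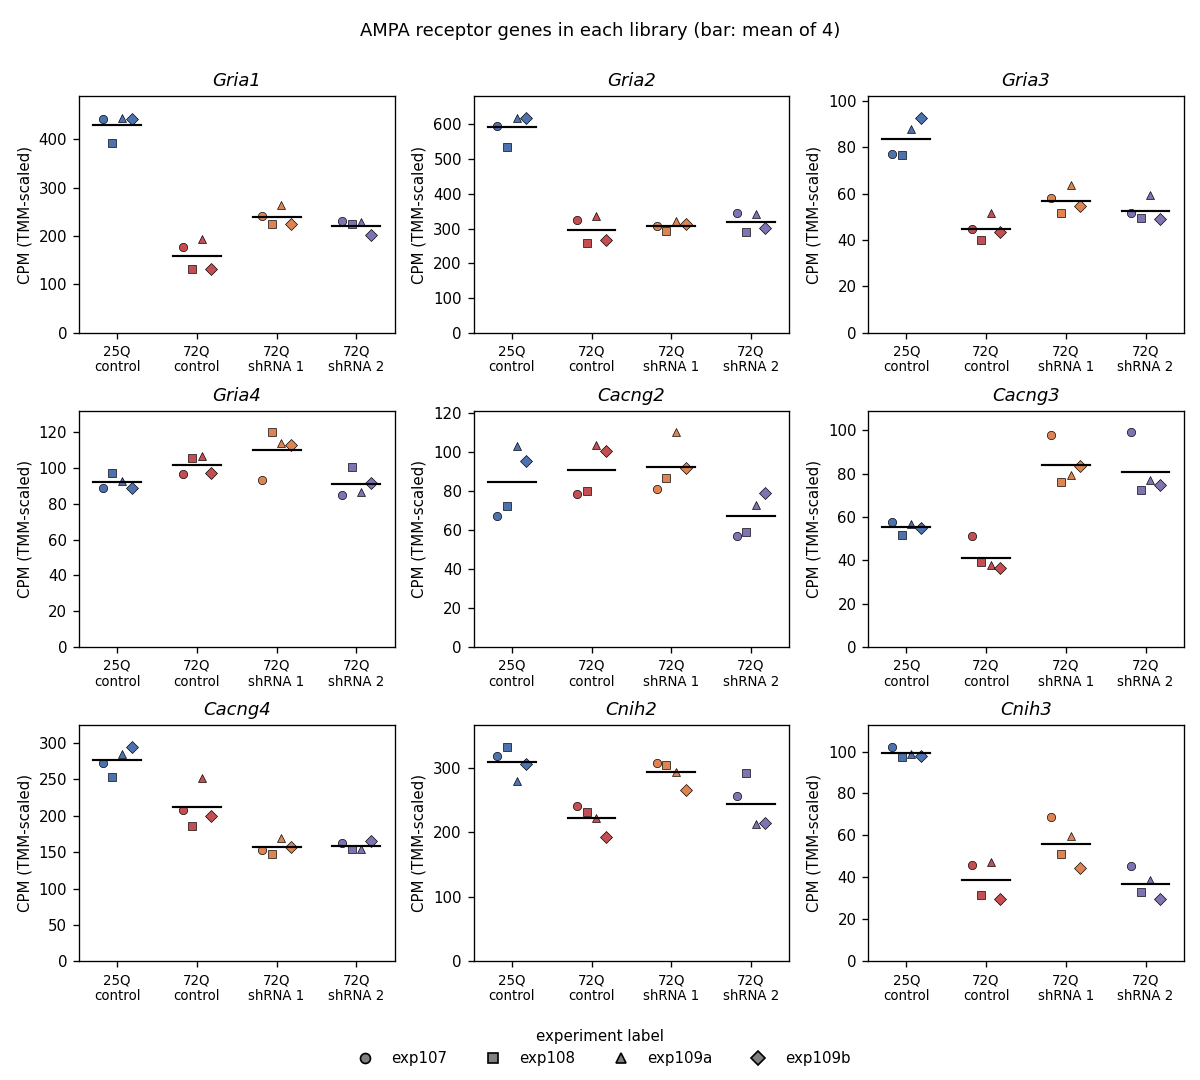
TMM-scaled CPM (vertical axis, linear from 0) of 9 AMPA receptor genes in each of 16 libraries, by group (horizontal axis); marker shapes give the experiment label and black bars the mean of 4 libraries. For Gria1, Gria2, Gria3, Cnih3 and, narrowly, Cacng4 all 25Q libraries lie above all others. For Cacng3 all libraries of both shRNA groups lie above the control groups.

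Among the TARPs, Cacng3 and Cacng4 fell. Cacng3 (TARP gamma-3, of the cerebral cortex) was at 57.6, 51.8, 56.9 and 54.8 CPM in 25Q neurons and at 51.3, 39.3, 38.0 and 36.5 CPM in 72Q. The 72Q library of exp107 came within 1 CPM of the lowest 25Q library, and the other 3 were well below. The log2 fold change of Cacng3 was -0.43 ± 0.060 (adjusted p = 3.84e-07, edgeR). Cacng4 (gamma-4, abundant in the developing brain) was at 272, 253, 285 and 295 CPM against 208, 186, 252 and 200 CPM, lower in each experiment. Its highest 72Q library (251.7 CPM) lay just under its lowest 25Q library (253.2 CPM). The log2 fold change of Cacng4 was -0.39 ± 0.053 (adjusted p = 3.39e-07, edgeR), or -0.26 with library totals alone.

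Cacng2, or stargazin, whose loss causes the stargazer mouse, was at 67.0, 72.4, 103 and 95.3 CPM in 25Q and at 78.3, 79.8, 104 and 101 CPM in 72Q. Experiments differed more than groups here, with exp109a and exp109b high in both. The difference of 0.11 had a 95% interval from -0.0038 to 0.22 and did not pass (adjusted p = 0.0925, edgeR). It passed without the 25Q library of exp109a (0.14, adjusted p = 0.0461), with upper-quartile factors (0.17, adjusted p = 0.00633) and with library totals alone (0.24, adjusted p = 2.30e-04). Without the 25Q library of exp107 it was lower, at 0.067 (adjusted p = 0.348), and over all 16 alternatives its adjusted p ran up to 0.614.

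Both cornichon genes fell. Cnih2, the main cornichon of forebrain receptors, was at 319, 333, 280 and 307 CPM in 25Q and at 241, 231, 223 and 192 CPM in 72Q. Cnih3 was at 102, 97.4, 98.9 and 98.1 CPM in 25Q, the tightest of all members, and at 45.9, 31.6, 47.6 and 29.6 CPM in 72Q. Neither gene overlapped between the groups. The log2 fold changes were -0.48 ± 0.055 for Cnih2 (adjusted p = 1.75e-08) and -1.38 ± 0.092 for Cnih3 (adjusted p = 1.89e-09, edgeR). In all, 7 of 9 members had groups that did not overlap in this comparison, against 38.3% of all genes tested.

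Knockdown of Twist1 in 72Q neurons was then compared with the control shRNA. Both comparisons use the same 4 control libraries, so their values are given side by side and their likeness is not counted as evidence. Cacng3 stood at 2.04 times the control level with shRNA 1 and 1.96 times with shRNA 2, Gria1 at 1.52 and 1.41 times, and Gria3 at 1.27 and 1.17 times. Cacng4 was lower with both, at 0.742 and 0.755 times, whereas Gria2 did not pass the test with either. With shRNA 1, 5 of 9 members rose, Cacng4 fell and 3 did not pass, where 46.3% of all genes were called, 22.7% higher and 23.6% lower. With shRNA 2, 3 members rose, 3 fell and 3 did not pass, where 41.8% of all genes were called, 20.2% higher and 21.5% lower. Higher genes made up 48.5% of the calls with shRNA 2, or 65.3% with library totals alone. Groups did not overlap for 5 members with shRNA 1 and 3 with shRNA 2, against 29% and 22.4% of all genes. Medians over the 9 members were 0.34 and 0.11 log2 units, beside -0.0054 and 0.0015 over all genes.

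Cacng3 was at 98.0, 76.2, 79.2 and 83.3 CPM with shRNA 1 and at 99.1, 72.7, 77.1 and 74.7 CPM with shRNA 2. All 8 libraries lay above the highest 72Q control library (51.3 CPM) and above the highest 25Q library (57.6 CPM), and the exp107 library led in each 72Q group. Log2 fold changes against the 72Q control were 1.03 ± 0.058 (adjusted p = 4.72e-15) and 0.97 ± 0.058 (adjusted p = 3.98e-14, edgeR). Against 25Q they were 0.60 ± 0.057 (adjusted p = 2.65e-10) and 0.54 ± 0.057 (adjusted p = 1.60e-09), so this TARP transcript was higher than in 25Q with either hairpin. The hairpins differed from each other by 0.061 for Cacng3 (95% interval -0.052 to 0.17, adjusted p = 0.371).

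Cacng4 was at 152, 148, 169 and 156 CPM with shRNA 1 and at 162, 154, 154 and 166 CPM with shRNA 2. All 8 values were below the lowest 72Q control library, at 186 CPM. It fell by 0.43 ± 0.054 log2 units with shRNA 1 (adjusted p = 1.21e-07) and fell by 0.41 ± 0.054 with shRNA 2 (adjusted p = 4.56e-07, edgeR). Against 25Q, from which the 72Q control was already lower, the differences were -0.82 ± 0.054 and -0.80 ± 0.054 (adjusted p of 1.43e-13 and 1.91e-13). Markers of the oligodendrocyte lineage, whose precursors are known to express this gene, summed to 1063 to 1204 CPM in the 72Q control libraries, 877 to 985 CPM with shRNA 1 and 751 to 874 CPM with shRNA 2. Of these 9 markers, 5 fell with shRNA 1 and 7 with shRNA 2, and none rose. Of all genes, 23.6% and 21.5% were called lower, and 22.7% and 20.2% higher. The part of these markers in the Cacng4 result was not tested.

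Gria1 was at 241, 225, 265 and 225 CPM with shRNA 1 and at 231, 225, 229 and 201 CPM with shRNA 2, each above the highest 72Q control library at 194 CPM. The log2 fold changes were 0.61 ± 0.073 (adjusted p = 1.81e-06) and 0.50 ± 0.073 (adjusted p = 2.26e-05, edgeR). Levels remained under those of 25Q, by -0.85 ± 0.072 and -0.96 ± 0.072 log2 units (adjusted p of 9.59e-09 and 1.43e-09). Excitatory neuron markers summed to 879 to 1069 CPM with shRNA 1, above the 72Q control, and to 661 to 829 CPM with shRNA 2, within its range. With shRNA 1, 3 of these 8 markers rose and 2 fell, beside 22.7% and 23.6% of all genes. With shRNA 2, 1 rose and 1 fell, beside 20.2% and 21.5% of all genes. The part of these markers in the Gria1 result was not tested.

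Gria3 was at 58.1, 51.7, 63.5 and 54.7 CPM with shRNA 1 and at 51.5, 49.6, 59.3 and 49.0 CPM with shRNA 2. It was higher than the control in all 4 experiments with both, by 0.34 ± 0.057 log2 units (adjusted p = 1.03e-05) and 0.22 ± 0.057 (adjusted p = 0.00221, edgeR). With shRNA 2 the groups overlapped, as the highest control library was at 51.66 CPM. Leaving the experiments out of the model cost the shRNA 2 call its significance (0.22, adjusted p = 0.0874), the highest adjusted p of its 16 alternatives, which reached down to 7.62e-05. Against 25Q it stood at -0.55 ± 0.055 and -0.68 ± 0.055 log2 units (adjusted p of 7.13e-10 and 7.62e-12).

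Gria2 was at 307, 293, 322 and 312 CPM with shRNA 1 and at 344, 290, 341 and 303 CPM with shRNA 2, overlapping the 72Q control in both cases. The difference from the control was 0.063 with shRNA 1 (95% interval -0.040 to 0.17, adjusted p = 0.324) and 0.11 with shRNA 2 (95% interval 0.0082 to 0.21, adjusted p = 0.0773, edgeR). The shRNA 2 value passed the test in 6 of 16 alternatives (adjusted p over all of them 0.00142 to 0.407), at no more than 0.19 log2 units, among them those without the 72Q control library of exp109a (0.15, adjusted p = 0.033) or exp107 (0.15, adjusted p = 0.0374) and without the shRNA 2 library of exp109b (0.15, adjusted p = 0.0442). Against 25Q, Gria2 was at -0.94 ± 0.050 with shRNA 1 (adjusted p = 8.35e-16) and at -0.89 ± 0.050 with shRNA 2 (adjusted p = 2.03e-15).

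**Figure D2:**
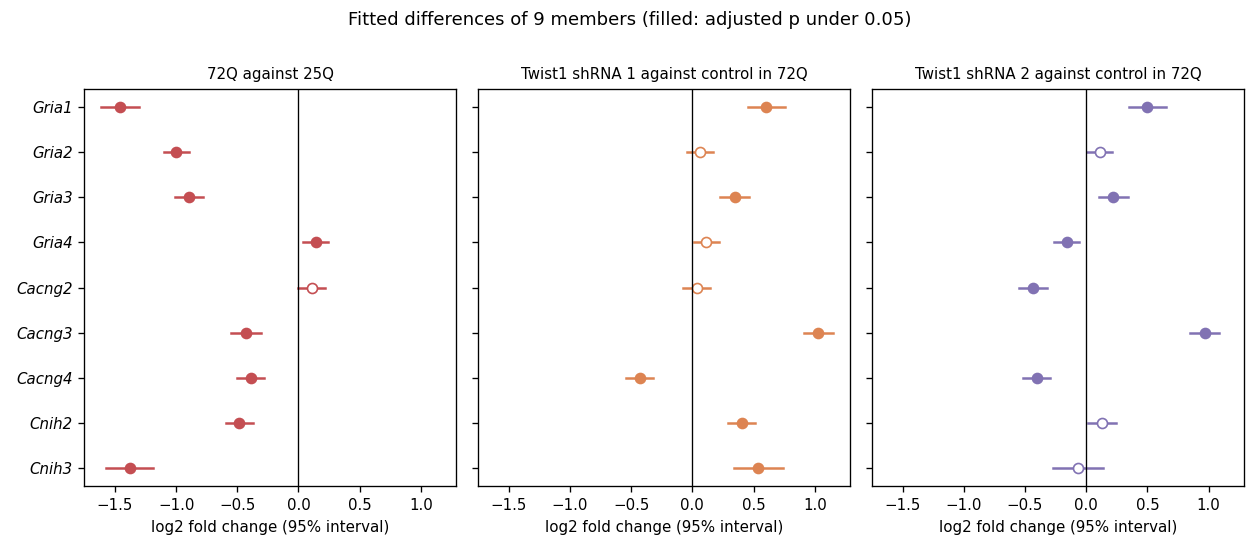
Log2 fold changes (horizontal axis) of 9 members with 95% intervals (lines) in 3 comparisons; filled circles passed an adjusted p under 0.05. Gria1 lies at -1.46 in 72Q against 25Q and at 0.61 and 0.50 with the hairpins, while Cacng3 lies at 1.03 and 0.97 with the hairpins and Cacng4 at -0.43 and -0.41. All 3 panels share the 72Q control libraries.

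The hairpins were also compared with each other directly, where 53.2% of all genes were called, 27.3% higher and 25.9% lower with shRNA 1. Higher genes were 51.3% of these calls, or 36.5% with library totals alone. Of the 9 members 4 were called, all of them higher with shRNA 1. Only Cacng2 had groups that did not overlap here, 1 of 9 members against 33.2% of all genes. Cnih3 was at 68.8, 51.2, 59.7 and 44.6 CPM with shRNA 1 and at 45.5, 33.2, 38.7 and 29.5 CPM with shRNA 2. Within each experiment shRNA 1 was the higher, by 0.61 ± 0.094 log2 units in the fit (adjusted p = 4.28e-05, edgeR). Against the 72Q control, Cnih3 rose by 0.54 ± 0.094 with shRNA 1 (adjusted p = 1.76e-04) and was at -0.069 ± 0.097 with shRNA 2 (adjusted p = 0.612). The shRNA 1 and control groups overlapped, with the highest control library at 47.59 CPM.

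Cacng2 was at 80.8, 86.9, 110 and 92.0 CPM with shRNA 1 and at 57.0, 59.1, 72.7 and 79.0 CPM with shRNA 2, with a difference of 0.47 ± 0.055 (adjusted p = 2.22e-08, edgeR). It fell by 0.44 ± 0.055 with shRNA 2 against the control (adjusted p = 1.61e-07) and was at 0.034 ± 0.054 with shRNA 1 (adjusted p = 0.643). The highest shRNA 2 library (79.03 CPM) lay above the lowest control library (78.28 CPM). Without the experiment block the adjusted p of this fall was 0.0394 (edgeR). Against 25Q, stargazin transcript was lower with shRNA 2, at -0.33 ± 0.055 (adjusted p = 6.89e-06), but this did not pass when the experiments were left out of the model (-0.34, adjusted p = 0.0673) or with library totals alone (-0.12, adjusted p = 0.0547), and its smallest adjusted p over 16 alternatives was 4.39e-08. With shRNA 1 its difference from 25Q was 0.14 ± 0.055 (adjusted p = 0.0274). That call was lost in 8 of 16 alternatives, among them without the shRNA 1 library of exp107, exp108 or exp109a or the 25Q library of exp107 or exp108 (0.10 to 0.13, adjusted p of 0.0888 to 0.139). Over all 16 its adjusted p ran from 6.74e-05 to 0.508, and the value was 0.23 with upper-quartile factors and 0.27 with library totals alone.

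Cnih2 was at 308, 305, 294 and 266 CPM with shRNA 1 and at 256, 292, 213 and 215 CPM with shRNA 2, which differed by 0.27 ± 0.055 (adjusted p = 1.23e-04, edgeR). It rose by 0.40 ± 0.055 with shRNA 1 (adjusted p = 6.14e-07), to a level whose difference from 25Q was -0.080 (95% interval -0.19 to 0.032, adjusted p = 0.217). That difference changed sign with upper-quartile factors (0.0053) and with library totals alone (0.047). With shRNA 2 the difference from the control was 0.13 ± 0.055 (adjusted p = 0.060), and it passed in 8 of 16 alternatives (adjusted p over all of them 0.00131 to 0.405). These included the fits without the 72Q control library of exp109a (0.17, adjusted p = 0.0258) and without the shRNA 2 library of exp109a (0.19, adjusted p = 0.00989) or exp109b (0.16, adjusted p = 0.0381). Against 25Q it was at -0.35 ± 0.055 with shRNA 2 (adjusted p = 2.29e-06), or -0.14 with library totals alone.

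Gria4 was at 93.1, 120, 114 and 113 CPM with shRNA 1 and at 84.9, 101, 86.9 and 91.4 CPM with shRNA 2, a difference of 0.27 ± 0.050 (adjusted p = 2.87e-05, edgeR). Against the control it fell by 0.16 ± 0.050 with shRNA 2 (adjusted p = 0.0101) and was at 0.11 ± 0.050 with shRNA 1 (adjusted p = 0.0603). The fall ended without the shRNA 2 library of exp109a (-0.11, adjusted p = 0.113), without the experiment block (-0.16, adjusted p = 0.145), with a block by title number (-0.16, adjusted p = 0.0845) and with library totals alone (-0.085, adjusted p = 0.147). Its adjusted p over 16 alternatives was never under 0.00932. The shRNA 1 value passed with upper-quartile factors (0.14, adjusted p = 0.0209), without the 72Q control library of exp109a (0.14, adjusted p = 0.0421) and without the shRNA 1 library of exp107 (0.17, adjusted p = 0.00771), its adjusted p reaching 0.272 elsewhere among its alternatives. Against 25Q, Gria4 was higher with shRNA 1 by 0.25 ± 0.050 (adjusted p = 6.85e-05) and at -0.019 ± 0.050 with shRNA 2 (adjusted p = 0.759). For Gria1, Gria3 and Gria2 the hairpins differed by 0.11 (95% interval -0.047 to 0.26), 0.12 (0.0074 to 0.24) and -0.048 (-0.15 to 0.055), none of which passed, and for Cacng4 by -0.026 (-0.14 to 0.085). The Gria2 difference passed with library totals alone (-0.13, adjusted p = 0.0179), and its adjusted p over all 16 alternatives ran up to 0.846.

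Set against 25Q, 8 of 9 members were called with each hairpin, where 57.4% of all genes were called with shRNA 1 and 63.3% with shRNA 2. Of the members, 3 were higher and 5 lower with shRNA 1, beside 28.1% and 29.4% of all genes. With shRNA 2, 1 was higher and 7 were lower, beside 31.4% and 31.8%. Groups did not overlap for 6 members in each case, against 40.1% and 43.4% of all genes. Higher genes made up 48.9% and 49.7% of the calls, but 61.2% and 61.5% with upper-quartile factors and 66.5% and 72.3% with library totals alone. Cnih3 stood at -0.84 ± 0.089 with shRNA 1 and -1.45 ± 0.092 with shRNA 2 (adjusted p of 5.22e-07 and 6.08e-10, edgeR).

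Because the subunits changed unequally, their make-up was described as each one's percentage of the summed RPKM of Gria1 to Gria4, with no test. The sum itself was 165 ± 7.04 RPKM in 25Q, 90.7 ± 9.38 in 72Q, 108 ± 4.05 with shRNA 1 and 109 ± 4.88 with shRNA 2 (SD, n = 4). These sums carry no TMM factors, so between groups they are not on the scale of the CPM values. The factors were 0.898 to 0.949 in 25Q, 0.99 to 1.035 in the 72Q control, 0.991 to 1.021 with shRNA 1 and 1.037 to 1.078 with shRNA 2. Gria2 made up 47.3 ± 0.60% in 25Q and 47.4 ± 0.96% in 72Q, and 41.2 ± 1.09% and 44.7 ± 2.13% with the hairpins. Libraries of shRNA 1, at 40.2 to 42.4%, and shRNA 2, at 41.6 to 46.3%, all lay below every library of both control groups. The margin was narrow for shRNA 2, with its highest library at 46.34% and the lowest control library, of 25Q, at 46.47%. Gria1 took 39.6 ± 0.587% in 25Q, 28.9 ± 2.17% in 72Q, 36.7 ± 1.53% with shRNA 1 and 35.7 ± 1.09% with shRNA 2. Gria4 went from 8.36 ± 0.828% in 25Q to 18.6 ± 2.41% in 72Q, and was 16.7 ± 1.84% and 14.5 ± 1.66% with the hairpins. Its own mean level was 13.8 RPKM in 25Q and 16.7 RPKM in 72Q, so the share rose mainly because the sum fell. Gria3 stayed between 4.32 and 5.61% in all libraries.

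The TARP transcripts with counts were described in the same way. Cacng4 held 68.7 ± 1.195% of the summed RPKM of Cacng2, Cacng3 and Cacng4 in 25Q and 65.2 ± 2.13% in 72Q, but 48.2 ± 1.49% and 51.9 ± 1.85% with shRNA 1 and shRNA 2 (SD, n = 4). Cacng3 went the other way, from 17.7 ± 1.09% and 16.6 ± 3.05% to 33.4 ± 3.50% and 33.9 ± 3.61%. These shares leave out Cacng8. Of the cornichon sum, Cnih3 made up 12.7 ± 0.853% in 25Q and 7.29 ± 1.35% in 72Q, with 7.95 ± 1.05% and 6.47 ± 1.31% under the hairpins.

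**Figure D3:**
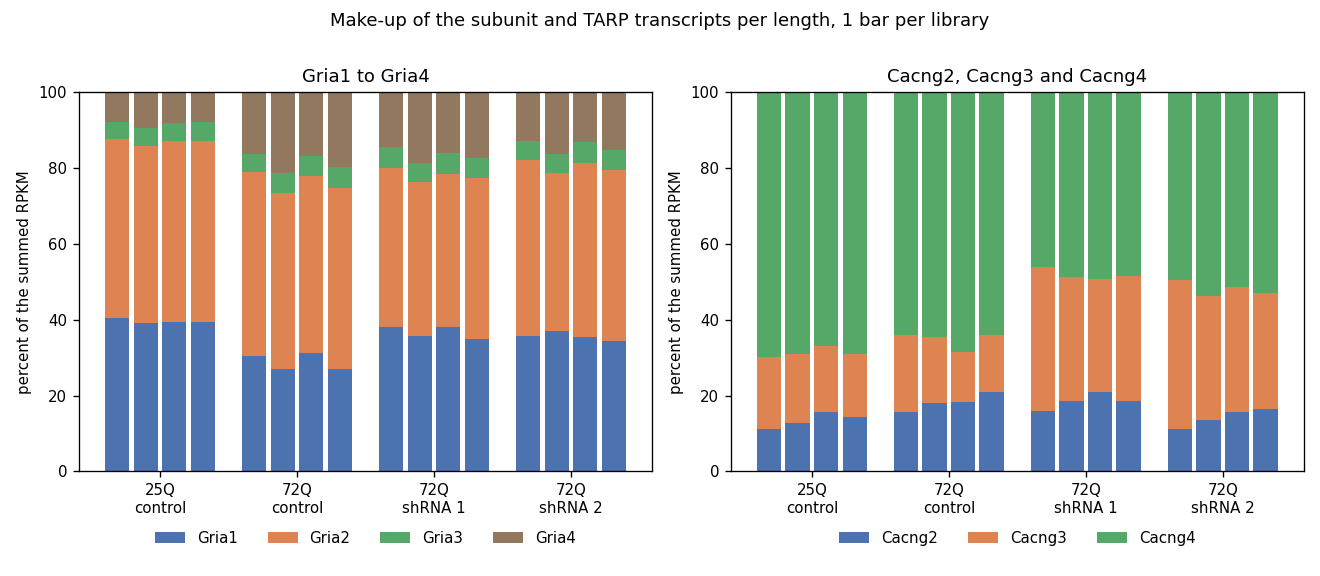
Percentage of the summed RPKM (vertical axis) taken by each AMPA subunit gene (left) and by each TARP gene with counts (right), 1 stacked bar per library, grouped by condition. The Gria4 share was 8.36% on average in 25Q and 18.6% in 72Q, with Gria4 itself at 13.8 and 16.7 RPKM. The Cacng3 share was 16.6% in the 72Q control and 33.4 and 33.9% with the hairpins.

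Cacng8 (TARP gamma-8, best known from the hippocampus) had 0 counts in every library, so no fold can be given. A count of 0 allows up to 0.19 CPM in the shallowest library (3 counts), a limit that covers counting error only. Related genes beside it on chromosome 7 were at 0 as well. Cacng7 before it and Cacng6 after it, of the same gene family, had 0 counts in all 16 libraries, and Tarm1 had 1. Further along, Oscar had 223 summed counts and Ndufa3, a subunit of mitochondrial complex I, had 25836. In all, 13130 listed genes were at 0 in every library. Why Cacng8 and its relatives beside it are at 0 was not tested. Nothing about expression of Cacng8 or Cacng7 is read from them.

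**Figure D4:**
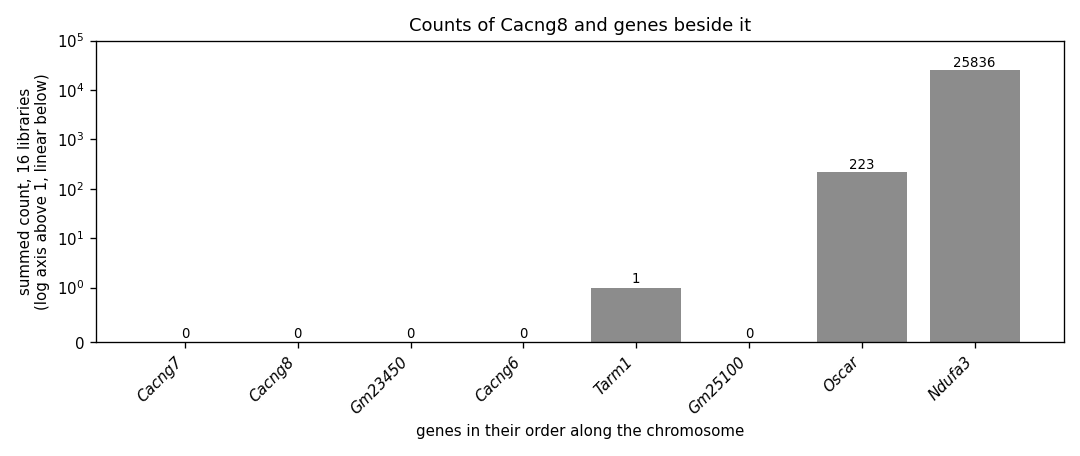
Counts summed over 16 libraries (vertical axis, logarithmic above 1 and linear below) for Cacng8 and genes beside it, from Cacng7 on, in chromosomal order (horizontal axis). Cacng7, Cacng8 and Cacng6 are at 0, and Oscar is at 223.

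Other genes of the receptor were taken from lists that had been written out with earlier results known. Of 24 other auxiliary and assembly genes, 23 passed the filter (Cacng7 being the exception). In 72Q against 25Q, 4 of these 23 rose and 14 fell, with a median of -0.27, where 29.3% of all genes were called higher and 27.8% lower. The shares of all genes were 22.7% and 23.6% with shRNA 1 and 20.2% and 21.5% with shRNA 2. The named falls were those of Syndig1, which raises the receptor content of young synapses (-1.78 ± 0.091, from 50.1 to 14.5 CPM), and Lrrtm4, a postsynaptic adhesion protein (-1.14 ± 0.10). The named rises were those of Vwc2, a secreted protein of the receptor proteome (0.46 ± 0.13), and Cnih1, the cornichon of general cargo (0.29 ± 0.048). With shRNA 1, 14 rose and only Cnih1 fell (-0.22 ± 0.048), with a median of 0.34, and the named genes that rose were Vwc2l, a relative of Vwc2 (0.88 ± 0.14), and Prrt2, a presynaptic and receptor-bound protein (0.82 ± 0.11). With shRNA 2, 12 rose and 2 fell, with a median of 0.14, among them Shisa8, a CKAMP family auxiliary subunit (0.93 ± 0.18), and Nrn1, or neuritin (0.63 ± 0.058), upwards, and Cnih1 (-0.20 ± 0.048) and Olfm1, a noelin (-0.13 ± 0.044), downwards. In edgeR the highest adjusted p among the genes named from this list was 0.0143.

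Among 25 genes of scaffolds, trafficking and editing, 3 rose and 16 fell in 72Q, with a median of -0.24, where 29.3% of all genes were called higher and 27.8% lower. Lrrtm1, a synaptic adhesion protein, fell by 1.74 ± 0.054 log2 units, from 137 to 41.1 CPM, and Camk2b, a subunit of the kinase CaMKII, fell by 1.49 ± 0.10. Gripap1, an endosomal partner of the scaffold GRIP, rose by 0.26 ± 0.049, and Syne1 rose by 0.25 ± 0.055. With shRNA 1, 15 rose and 6 fell, beside 22.7% and 23.6% of all genes. The scaffold gene Grip2 rose by 1.12 ± 0.11 and Arc, an activity-induced regulator of receptor uptake, by 0.98 ± 0.091. Adarb1, the enzyme that edits the Gria2 codon shown above, fell by 0.79 ± 0.051, from 172 to 98.9 CPM, and Grip1, which binds GluA2, fell by 0.36 ± 0.056. Adarb1 was at -0.050 with shRNA 2 (adjusted p = 0.451), and its direct difference between the hairpins was -0.74 (adjusted p = 3.54e-13). With shRNA 2, 11 rose and 3 fell, beside 20.2% and 21.5% of all genes. There Arc rose by 0.67 ± 0.092 and Grip2 by 0.57 ± 0.11, while Nptxr, the pentraxin receptor that gathers AMPA receptors, fell by 1.26 ± 0.048, from 760 to 319 CPM, and Dlg4, which codes for PSD-95, fell by 0.32 ± 0.046. Both were higher with shRNA 1 (0.19 and 0.17 log2 units) and differed directly between the hairpins, 2.73-fold for Nptxr (adjusted p = 1.90e-20) and by 0.49 log2 units for Dlg4 (adjusted p = 3.23e-10). No gene named from this list for its change had an adjusted p above 2.71e-04 (edgeR) in that comparison.

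**Figure D5:**
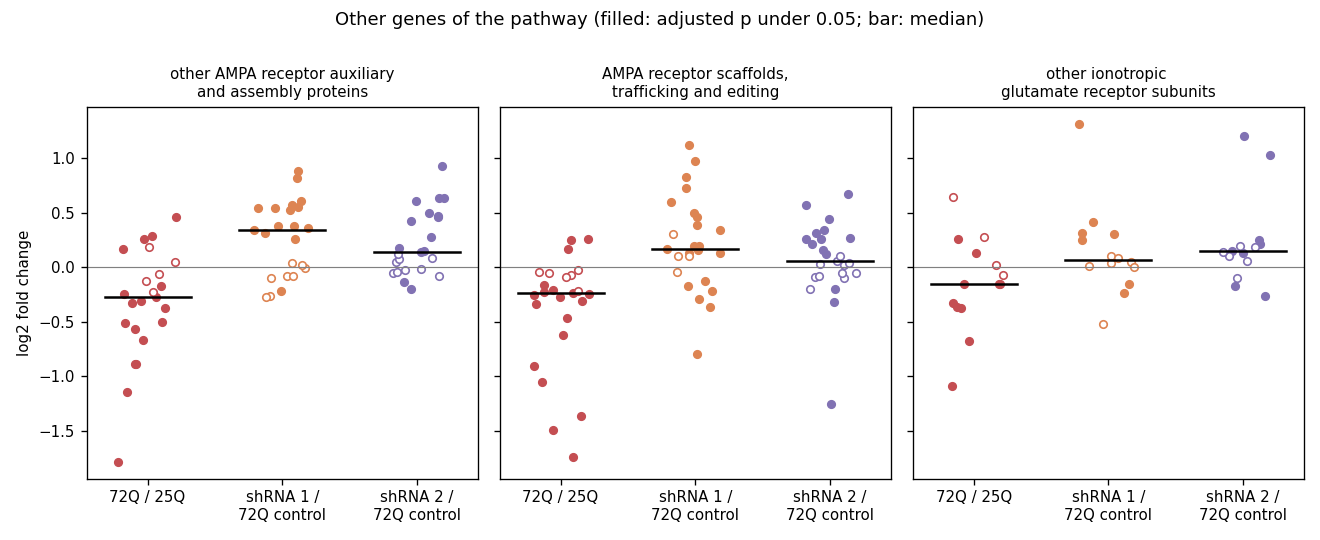
Log2 fold changes (vertical axis) of the genes in 3 lists around the AMPA receptor, in 3 comparisons (horizontal axis, with random sideways spread); filled points passed an adjusted p under 0.05 and bars are list medians. Medians of the auxiliary list were -0.27, 0.34 and 0.14, and those of the scaffold list -0.24, 0.17 and 0.059.

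The genes whose pattern was most like each subunit were listed by Pearson's r of log2 CPM over the 16 libraries after removing experiment means, among 11128 candidates. For Gria1 these were Slit3, Cacna1e and Egr3 (r of 0.992, 0.989 and 0.988), for Gria2 Lzts1, Sstr4 and Ptprk (0.996, 0.995 and 0.992), and for Gria3 Kcnh5, Ephb6 and Atp2c1 (0.990 for each). For Gria4 they were Smc3, Pdk2 and Hcfc1 (0.942, 0.941 and 0.940). Among the members themselves Gria1 and Gria3 had the highest value (0.981), and Cacng3 and Cacng4 the lowest (-0.677). These are descriptions over libraries that share 4 group means.

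Promoter sequences were available for 7 of the 10 members (RefSeq, GRCm38.p6) and were searched, on both strands, for the E-box CANNTG in the 250 bases before the start. It was found in 66.2% of 32851 promoters, and in 5 of the 7, each with 1 match. The motif reads the same on both strands. Of its variants, CATATG, in 3.46% of promoters, and CATCTG or its reverse complement CAGATG, in 14.4%, were found in none of the 7. CAGCTG, in 13.0%, was the match of Cacng2 and of Cacng3. The windows of these genes and of Cacng8 precede the RefSeq start but lie inside the deposited gene spans. Printed are 3 windows that lie outside the deposited gene spans, for genes with contrasting patterns, with the E-box in capitals. They are Gria2, lower in 72Q, at chr3:80802836-80803085 on the minus strand, Gria4, the subunit that was not lower, at chr9:4796235-4796484 on the minus strand, and Cnih3, which differed between the hairpins, at chr1:181352378-181352627 on the plus strand.
Gria2: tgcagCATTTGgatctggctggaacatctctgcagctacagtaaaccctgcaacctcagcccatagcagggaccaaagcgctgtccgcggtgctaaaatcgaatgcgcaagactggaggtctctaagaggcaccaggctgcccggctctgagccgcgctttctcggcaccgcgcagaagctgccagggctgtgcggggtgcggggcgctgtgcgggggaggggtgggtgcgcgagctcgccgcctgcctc
Gria4: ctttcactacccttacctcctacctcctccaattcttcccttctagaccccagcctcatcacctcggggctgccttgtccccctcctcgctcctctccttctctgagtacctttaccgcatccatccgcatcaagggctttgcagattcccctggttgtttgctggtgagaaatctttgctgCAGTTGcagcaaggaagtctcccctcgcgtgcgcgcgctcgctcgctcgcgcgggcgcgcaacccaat
Cnih3: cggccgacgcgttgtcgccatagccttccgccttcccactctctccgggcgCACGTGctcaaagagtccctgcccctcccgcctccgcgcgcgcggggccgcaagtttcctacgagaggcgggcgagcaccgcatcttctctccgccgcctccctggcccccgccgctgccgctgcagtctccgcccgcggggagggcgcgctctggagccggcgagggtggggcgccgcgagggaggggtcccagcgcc
A match is a description of the letters and not of binding.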

How the data were processed

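STAR 2.0.4b, featureCounts 1.45 (Subread) and GRCm38 are the tools and build named in the submitters' processing notes. Whether counting used strand or multi-mapped reads, and with which annotation, is not stated there. The authors deposited raw counts per gene, the input of every test. Deposited CPM and deposited RPKM equalled values recomputed from counts and listed lengths to within 4.00e-11. RPKM entered only levels and shares per length, without TMM factors. Symbols matched 40254 of 41388 identifiers.

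The members and gene lists were chosen with earlier results of these data known. Filtering (filterByExpr), TMM scaling and quasi-likelihood tests (robust glmQLFit, glmQLFTest) used edgeR 4.0.16 in R 4.3.3 on the 16 libraries together. The model held group and experiment, with a prior count of 2 and Benjamini-Hochberg adjustment over 15103 genes at 0.05. SE is the log2 fold change over the root of F. Libraries of 1 experiment deviated together in every pair of groups (r of 0.223 to 0.612 across genes, against means of -0.157 to -0.11 between experiments). Group means were removed first, which forces the second values below 0 when the first lie above it. The second values are therefore not separate evidence. The steps were tested on simulated data. Chi-square per degree of freedom between libraries of a group was 2.71 to 20.8, so none was a repeat of another within sampling noise. The lowest was that of exp109a and exp109b in 25Q. This pair was also the closest with shRNA 1 (4.495) and shRNA 2 (5.946), but not in the 72Q control (8.741). Alternatives included DESeq2 1.42.0. Genes named from the lists were the 2 highest and 2 lowest called per list and comparison, with at least 1 CPM on average and the same sign in 4 experiments, and nearest patterns were the 3 highest r per subunit among genes of at least 5 CPM. Some results that the rule selects are not reported here.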

Additional observations from a re-analysis of the deposited data

Results flagged for a closer look

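In groups of 4 libraries, 2 sets of member values had a library far from the rest by Dixon's test, of 36 sets tested, and chance alone gives about 1 in 20. Cacng3 with shRNA 2 was at 99.1 CPM in exp107, against 72.7 CPM in its lowest library, and Gria1 in 25Q was at 392 CPM in exp108, against 445 CPM in its highest. Effects of the hairpins differed by direct test, as shRNA 1 minus shRNA 2 on the log2 scale, for Gria4 (0.27), Cacng2 (0.47), Cnih2 (0.27) and Cnih3 (0.61), each in the same direction in 4 of 4 experiments. These are 4 of 9 members, where 53.2% of all genes were called.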

How the results depend on the processing

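Of 54 fitted member values, 40 passed the test, where 41.8 to 63.3% of all genes passed in the same comparisons. Of the 40, 35 passed in all 16 alternatives run, a count that was not made for all genes. None of the 40 changed sign. The other 5 lost their call in at least 1 alternative (Gria4 in 72Q against 25Q and with shRNA 2 against the control, Gria3 with shRNA 2 against the control, and Cacng2 with each hairpin against 25Q), and 6 of the 14 others passed in at least 1. Without the replicate block, 4561 genes were called with shRNA 1 and 3621 with shRNA 2, from 6999 and 6307. The title number matches the experiment in all 72Q libraries but, among the 25Q libraries, only in that of exp109b. Values that changed sign were those of Cnih2 with shRNA 1 against 25Q (0.0053 with upper-quartile factors, 0.047 with library totals alone), Cnih3 with shRNA 2 against the control (0.0070 with library totals, and -0.12 to 0.027 leaving out 1 library, with the highest without the 72Q control library of exp109a), Cacng3 and Cacng4 between hairpins (-0.022 with library totals, and -0.098 to 0.0017 leaving out 1 library, with the highest without the shRNA 2 library of exp108) and Gria4 with shRNA 2 against 25Q. The last was 0.081 with upper-quartile factors, 0.19 with library totals (adjusted p = 0.000722), 0.0020 in a fit of the compared groups alone, and -0.039 to 0.024 leaving out 1 library (0.0043 and 0.024 without the 25Q library of exp107 or the shRNA 2 library of exp109a). The cause was not tested. Library totals alone moved the median of all genes in 72Q against 25Q from 0.03 to 0.16 log2 units, and the share of calls that were higher from 51.4% to 69.7%. Without division by length, which changes the weight of each subunit, the Gria2 share was 49.4% in 25Q, 49.3% in 72Q and 43.2% with shRNA 1. Shares of Gria1, Cacng3 and Cacng4 were added after seeing the data.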

Other observations

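The other ionotropic glutamate receptor genes, 14 subunits of the NMDA, kainate and other classes that all passed the filter, were described beside the AMPA receptor. In 72Q against 25Q, 2 rose and 8 fell, with a median of -0.15 log2 units, where 29.3% of all genes were called higher and 27.8% lower. Grin2a and Grin2b, NMDA receptor subunits, fell by 1.09 ± 0.080 and 0.67 ± 0.063, and Grik5, a kainate subunit, rose by 0.13 ± 0.049. With shRNA 1, 5 rose and 2 fell, beside 22.7% and 23.6% of all genes. Grin3a rose by 0.42 ± 0.074 beside Grin2a (1.32 ± 0.078), and Grik4 and Grin2d were lower at -0.24 ± 0.076 and -0.15 ± 0.061. With shRNA 2, 6 rose and 2 fell, beside 20.2% and 21.5% of all genes. Grin2a (1.202 ± 0.078) and Grik4 (0.25 ± 0.073) were the named rises, and Grik3 was lower at -0.17 ± 0.053. The highest adjusted p among them was 0.0382 (edgeR). Grik4, a kainate subunit, was lower with shRNA 1 and higher with shRNA 2 in all 4 experiments, a direct difference of -0.49 (adjusted p = 2.18e-06).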
